A study of Huso dauricus with 9 samples.

Results

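The solute carriers described here are membrane proteins that move amino acids, peptides, sugars, fatty acids and small organic acids across cell membranes. A gene belonged to the set when the Swiss-Prot gene name or the KEGG gene name of a transcript placed it in families SLC1A, SLC2A, SLC3A, SLC5A, SLC6A, SLC7A, SLC15A, SLC16A, SLC27A, SLC36A, SLC38A or SLC43A and the transcript reached 1 FPKM in at least 3 of the 9 libraries. FPKM counts fragments per kilobase of a transcript, scaled by the size of the library, and is a level per length, so levels may be set side by side between genes. The name rule matched 105 transcripts of 59331, 64 by Swiss-Prot and 41 by KEGG alone, and 96 of them passed the level filter. They fell into 53 genes, each represented by its transcript of highest mean FPKM. By substrate these were 2 carriers of acidic amino acids, 5 of cationic amino acids, 17 of neutral or a broad range of amino acids, 4 of peptides, 10 of sugars, 3 of fatty acids, 2 of monocarboxylates and 10 of other substrates such as taurine, creatine, inositol and neurotransmitters.

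Absorption in the vertebrate gut runs through carriers in series. Peptidases at the brush border release short peptides, amino acids and simple sugars, which symporters in the luminal membrane draw into the enterocyte with sodium or protons, and exchangers or facilitative carriers in the basolateral membrane pass them on to the blood. Several amino acid exchangers work as a heavy chain, which brings the complex to the membrane, joined to a light chain, which does the transport.

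The samples were guts of kaluga sturgeon, *Huso dauricus*, a river-migrating sturgeon whose wild numbers are supplemented with farmed fish. All fish were marked with a fluorescent dye in the snout, released into a river in autumn and caught with seine nets. The groups were Ori, caught at day 0, D14FL, caught at day 14, and D30FL, caught at day 30 after release, with 3 different fish and 1 poly(A) library per fish in each. No genotype, age or batch is given in the labels, and without fish kept in the hatchery to days 14 and 30 the time since release, the date, the food and any batch cannot be told apart.

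The 53 carriers were matched to proteins of many species, with a fish as the best match for 50 of them, a sturgeon of the genus *Acipenser* among 20 of these, and a land vertebrate for SLC15A2, SLC3A2 and SLC38A1. In 31 of them the level was at least 1 FPKM in every library. SLC2A3, SLC2A6, SLC36A4, SLC38A3, SLC5A3 and SLC6A9 reached 1 FPKM only in D14FL or D30FL guts and so entered the set through those groups. On the first principal component of all tested transcripts, which held 42.1% of the variance, the later libraries lay between -36.5, in the third D30FL fish, and 183.5, in the second, and the Ori libraries between -149.8 and -116.8. Transcripts at 1 FPKM or more numbered 42228 to 49503 in the later libraries and 35812 to 41584 in the Ori ones. The gut label was met by the enterocyte markers: 15 of 21 listed were found, their summed level was 2682 to 5710 FPKM in Ori guts, 2788 to 3495 FPKM in D14FL guts and 1470 to 3378 FPKM in D30FL guts, and villin (VIL1), a structural protein of microvilli, lay between 17.2 and 75.0 FPKM.

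Among the transcripts that stand for the 53 genes, only carriers of amino acids were called. Less abundant transcripts of the taurine carrier SLC6A6 and the serotonin carrier SLC6A4 were also called, as given below. At day 14 SLC1A1, SLC6A20A and SLC16A10 rose against day 0 and no carrier fell, so that 3 of 53 carriers passed the test with 2.17% of all 54200 tested transcripts called higher and 0.600% called lower. At day 30 SLC1A5 rose against day 0 and no carrier fell. That is 1.89% of the 53, not above the background of 2.49% higher (0.732% lower). In whole gut, a change in the number of cells of a type and a change in RNA per cell cannot be told apart. The test was limma on log2(FPKM + 1) over all 9 libraries with a Benjamini-Hochberg adjusted p under 0.05. The whole table lay higher at the later days, with the median of all tested transcripts up by 0.38 log2 units at day 14 and 0.37 at day 30. The log2 changes given for carriers are therefore relative to that median, while the adjusted p refers to the change before it is subtracted. Scaling each library by its median ratio removed most of that shift and turned the whole-table split at day 14 to 435 higher and 646 lower, against 1176 and 325 as deposited. At day 30 the split became 534 and 709, against 1349 and 397. Under this scaling SLC1A1 remained called at day 14, the only carrier of the 53 to do so (0.803% of all tested transcripts higher, 1.19% lower), and none was called at day 30 (0.985% higher, 1.31% lower).

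**Figure D1:**
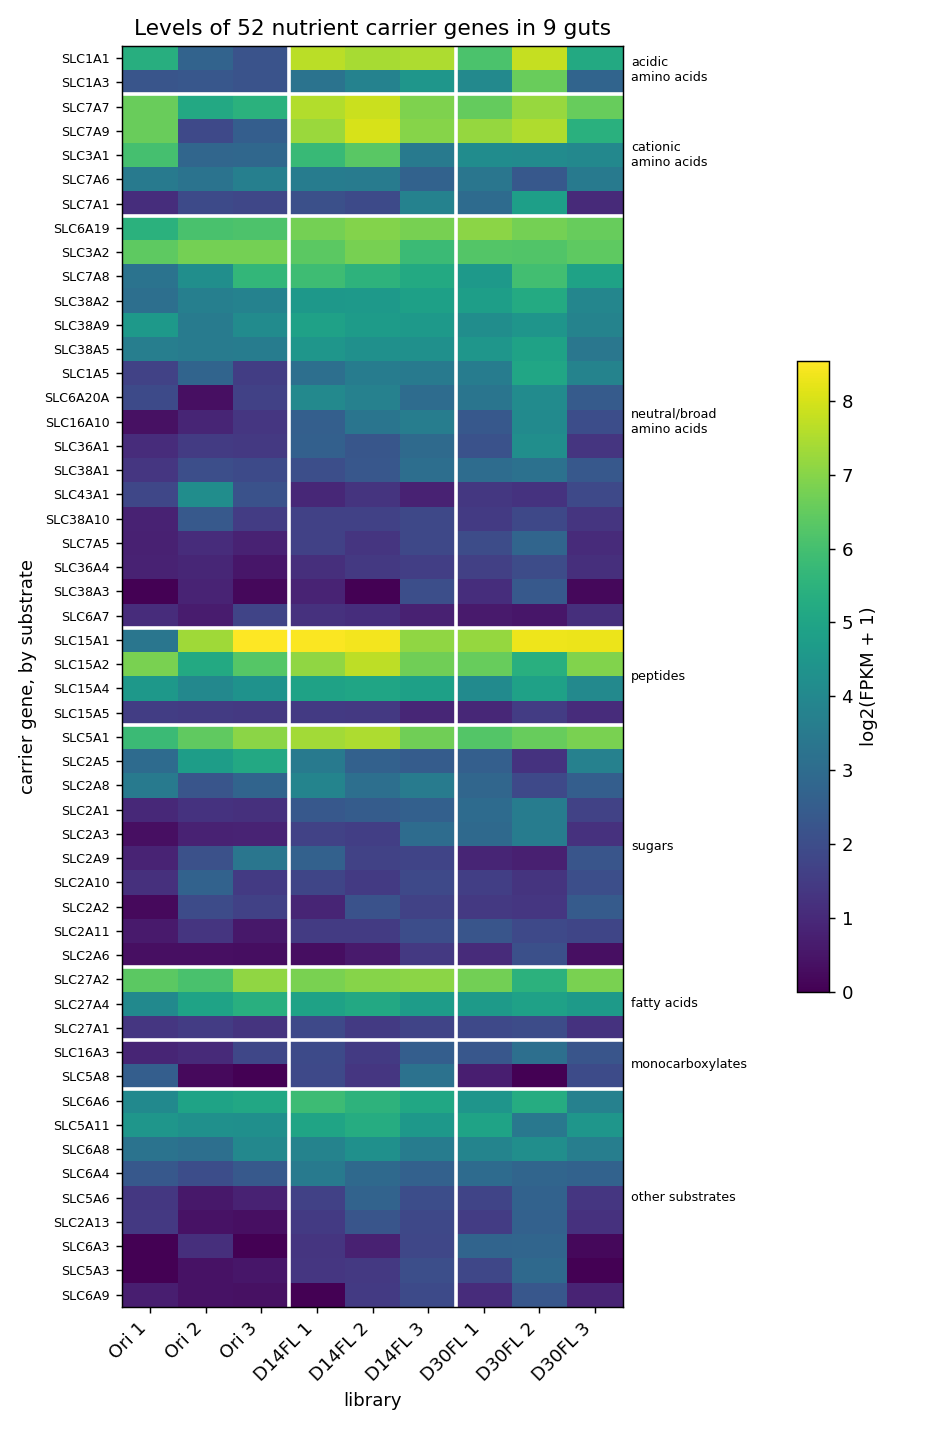
Level of the carriers, less 1 that is not reported, in each library, as log2(FPKM + 1) by colour, with carriers in rows by substrate and libraries in columns by day. The brightest rows include SLC15A1, SLC7A7, SLC7A9, SLC5A1 and SLC1A1, and the SLC1A1 row is brighter in the 3 D14FL columns than in the 3 Ori columns.

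Between day 14 and day 0 the 3 fish of each group did not overlap in 24 carriers, 23 of them higher at day 14 (43.4% of the 53, with 27.8% of all tested transcripts) and 1 lower (6.70% of all). Of the higher carriers, SLC2A3, SLC36A4 and SLC5A3 entered the set through the later groups, which favours higher later values. The same limit holds for SLC16A10, SLC6A20A, SLC2A1, SLC2A11, SLC2A13, SLC5A6 and SLC7A5. These lay under 1 FPKM in some Ori gut and passed the filter only with later libraries counted. All tested transcripts passed the same filter. The choice of the transcript with the highest mean over the 9 libraries was made for the carriers alone, and 29 of the 53 genes had such a choice. It can favour transcripts that are high in the later libraries, so the shares of the carriers and of all transcripts are not fully alike. Amino acid carriers made up 14 of the 23 higher carriers, from 24 amino acid carriers in all, and the other 9 came from the 29 carriers of other substrates. The transcript used for SLC38A1, among those 14, held 50.7% of the mean FPKM of its name. The other SLC38A1 transcript lay lower at day 14 without overlap (-1.04, limma adjusted p = 0.270). SLC7A9 is also among those 14, and a less abundant transcript of its name lay lower, with overlap (-0.96, limma adjusted p = 0.490). The median relative change at day 14 was 0.35 over the set, 0.57 over the amino acid carriers and 0.29 over the others, where the median of all tested transcripts is 0 by construction. At day 30 the groups did not overlap in 15 carriers, 14 higher (26.4% of the 53, with 20.8% of all) and 1 lower (6.14% of all). Among those 14 are SLC2A3, SLC36A4 and SLC6A9, which also entered through the later groups. SLC16A3, SLC16A10, SLC2A1, SLC2A11 and SLC6A20A, also among them, passed the filter only with later libraries counted. Before adjustment, 13 carriers were higher and 1 lower at day 14 at a threshold of 0.05 (18.5% and 4.64% of all tested transcripts), and 18 higher and 2 lower at day 30 (18.9% and 5.08% of all). The medians at day 30 were 0.40 over the set, 0.59 over the amino acid carriers and -0.06 over the others. The difference between the substrate groups was not tested.

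**Figure D2:**
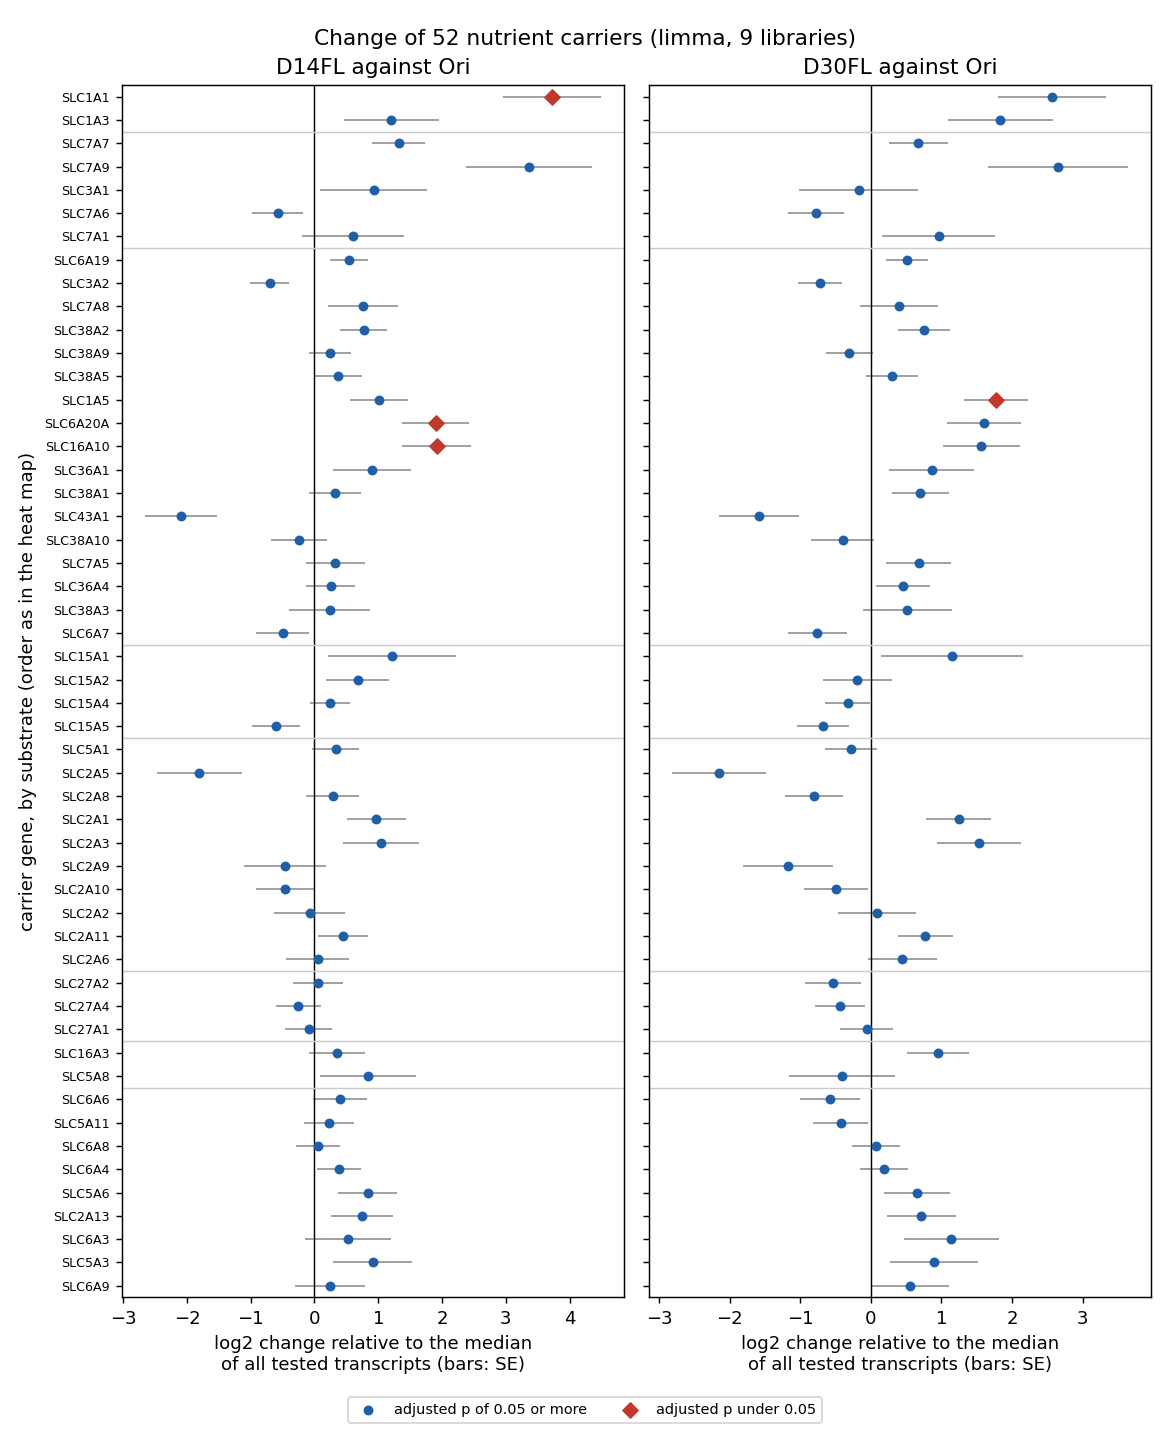
Log2 change of the carriers, less 1 that is not reported, relative to the median of all tested transcripts, day 14 against day 0 at left and day 30 against day 0 at right, with bars of 1 SE from limma over 9 libraries. Red diamonds mark adjusted p under 0.05: SLC1A1, SLC6A20A and SLC16A10 at day 14 and SLC1A5 at day 30.

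The first of the acidic amino acid carriers was SLC1A1, the high-affinity glutamate and aspartate carrier of epithelia and neurons. It had 39.9, 5.64 and 3.51 FPKM in Ori guts, 201, 171 and 178 FPKM in D14FL guts and 68.7, 219 and 35.4 FPKM in D30FL guts. Every D14FL fish lay above every Ori fish, while the third D30FL fish lay below the first Ori fish. The relative log2 change was 3.72 at day 14 (SE 0.77, adjusted p = 0.0235, transcript TRINITY_DN36403_c1_g1_i6_1) and 2.57 at day 30 (SE 0.77, adjusted p = 0.0572). Leaving out the first Ori fish, the highest of its group, raised the day 30 change to 3.62 with an adjusted p of 0.0266. Such a choice enlarges a rise by construction. Leaving out any D14FL fish, or the second or the third Ori fish, ended the day 14 call, with adjusted p of up to 0.0849. SLC1A3, in mammals the glutamate carrier of glia, had 3.78, 3.96 and 3.54 FPKM in Ori guts, 8.49, 12.8 and 21.3 FPKM in D14FL guts and 15.3, 95.7 and 5.74 FPKM in D30FL guts. Both later groups lay above Ori without overlap, yet the spread at day 30 was wide and neither change passed the test (1.20, SE 0.74, adjusted p = 0.225 at day 14 and 1.84, SE 0.74, adjusted p = 0.110 at day 30).

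Among the carriers of cationic amino acids, SLC7A9 is the light chain that takes up cystine and cationic amino acids at the brush border. It had 96.2, 2.72 and 4.87 FPKM in Ori guts, 152, 262 and 126 FPKM in D14FL guts and 146, 181 and 41.6 FPKM in D30FL guts. Swiss-Prot and KEGG give this transcript as the brush border light chain, while its closest entry among non-redundant proteins is a centrosomal protein, so its identity is uncertain. A pair of further passing transcripts named SLC7A9, with means of 11.1 and 1.56 FPKM, were not called. The first Ori fish stood far above the other two Ori fish, and the change of 3.36 at day 14 (SE 0.99, adjusted p = 0.0644) and of 2.65 at day 30 (adjusted p = 0.103) did not pass. Without that fish SLC7A9 was called at both days, at 4.90 (adjusted p = 0.00513) and 4.20 (adjusted p = 0.0142). Leaving out the highest Ori value enlarges a rise by construction, so these values add no support for a change. SLC3A1 (rBAT), the heavy chain that pairs with SLC7A9 in mammals, had 63.3, 6.06 and 6.13 FPKM in Ori guts, 53.1, 80.0 and 10.3 FPKM in D14FL guts and 16.8, 16.4 and 14.8 FPKM in D30FL guts. Heavy and light chain were thus both high in the first Ori fish and in the first and second D14FL fish. In the third D14FL fish and the first and second D30FL fish SLC7A9 was high (126, 146 and 181 FPKM). SLC3A1 was not high in those fish (10.3, 16.8 and 16.4 FPKM). Neither change of SLC3A1 passed (0.93 at day 14, SE 0.84, adjusted p = 0.357, and -0.17 at day 30, adjusted p = 0.902).

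SLC7A7 (y+LAT1), the light chain through which cationic amino acids leave the enterocyte for the blood, had 95.7, 34.2 and 42.3 FPKM in Ori guts, 186, 231 and 116 FPKM in D14FL guts and 90.9, 149 and 92.4 FPKM in D30FL guts. All D14FL fish lay above all Ori fish, and the D30FL fish overlapped with the first Ori fish. The change at day 14 was 1.32 (SE 0.42, adjusted p = 0.0534), just short of the threshold, and it passed without the first Ori fish (1.84, adjusted p = 0.0354) and without the second or the third D30FL fish. The first Ori fish was again the highest of its group, so leaving it out enlarges the rise by construction. At day 30 the change was 0.67 (adjusted p = 0.161). The other members, SLC7A6 and SLC7A1, had means of 9.04 and 6.69 FPKM over all fish and were not called.

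**Figure D3:**
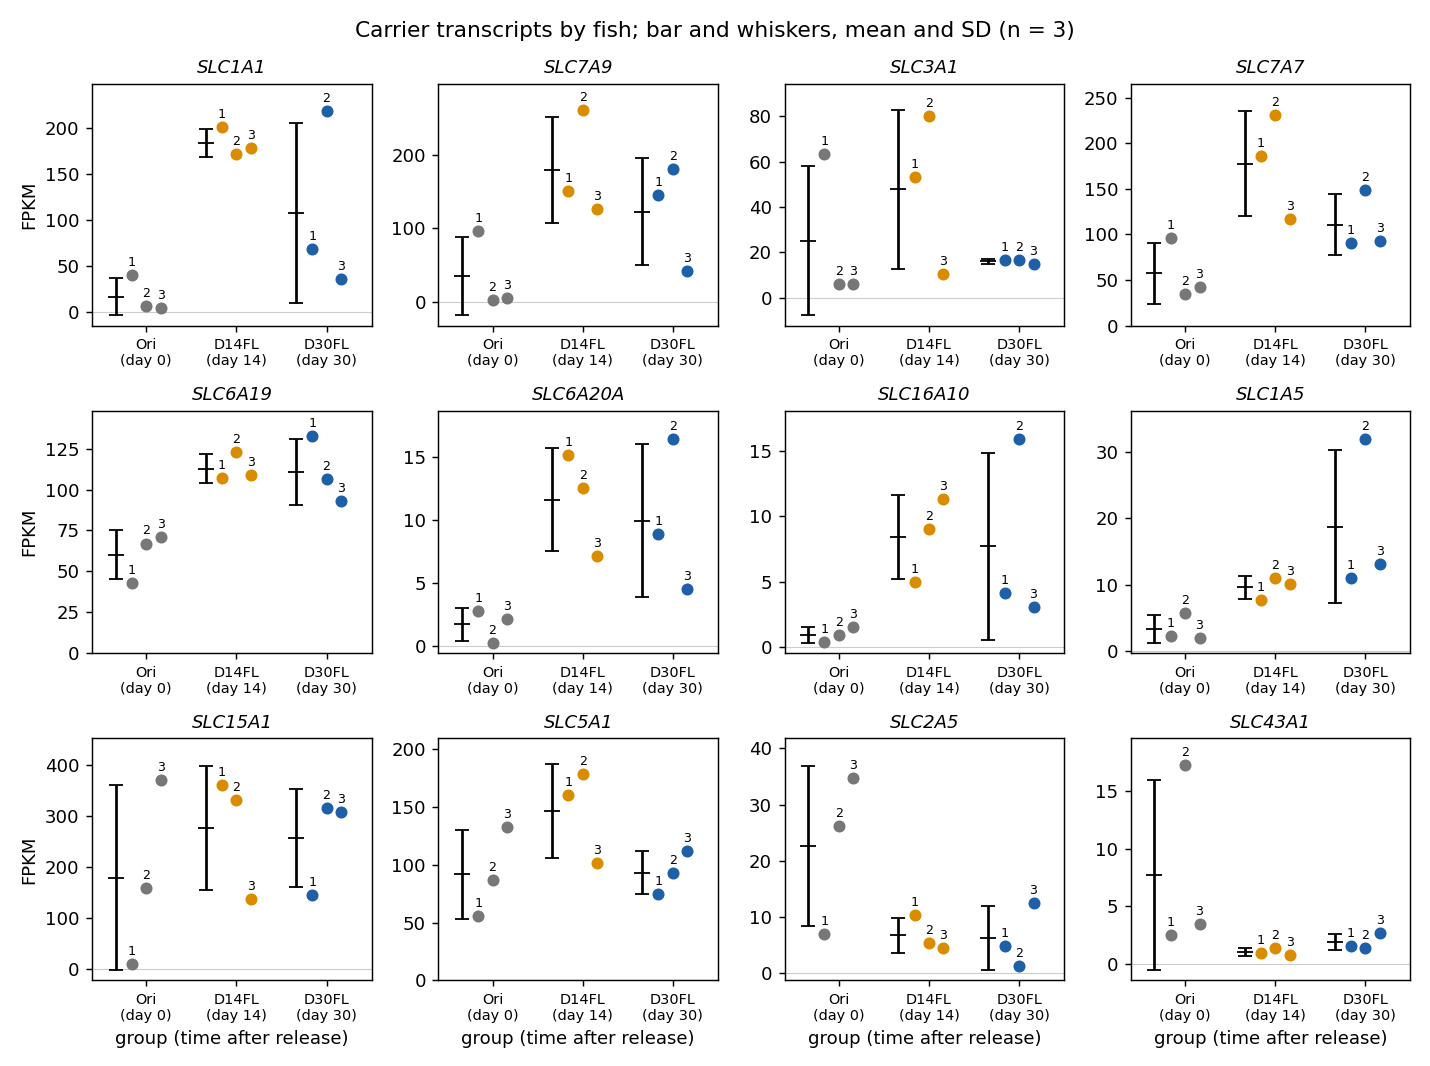
FPKM of 12 carriers in each fish at days 0, 14 and 30, with fish numbered within their group, which pairs no fish across groups, and the mean and SD of 3 fish drawn to the left of each group. In the SLC1A1 panel the 3 D14FL fish sit between 171 and 201 FPKM, above all Ori fish. The panels of SLC7A9 and SLC3A1 show the first Ori fish above the other two, and that of SLC15A1 shows it below them.

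The most abundant of the 17 carriers of neutral or a broad range of amino acids was SLC6A19 (B0AT1), the main sodium symporter for neutral amino acids at the brush border. It had 43, 67.0 and 70.8 FPKM in Ori guts, 107, 123 and 109 FPKM in D14FL guts and 133, 106 and 92.9 FPKM in D30FL guts. Both later groups lay above Ori without overlap. The relative changes were small beside those of SLC1A1, 0.54 at day 14 (SE 0.29, adjusted p = 0.104) and 0.51 at day 30 (adjusted p = 0.108), and neither passed. The heavy chain SLC3A2 (4F2hc), partner of several basolateral exchangers, had 84.5, 107 and 107 FPKM in Ori guts, 81.8, 109.8 and 55.2 FPKM in D14FL guts and 75.3, 73.3 and 84.2 FPKM in D30FL guts. It was the 1 carrier whose D30FL values all lay below the Ori values, though the gap between the groups was narrow (-0.72, SE 0.31, adjusted p = 0.496). SLC7A8 (LAT2), a light chain that pairs with SLC3A2 and exchanges neutral amino acids, had 8.57, 17.8 and 49.6 FPKM in Ori guts, 58.5, 44.8 and 35.1 FPKM in D14FL guts and 22.8, 61.5 and 29.2 FPKM in D30FL guts, with overlap at both days.

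SLC6A20A, one of the rodent names for the imino acid symporter that takes up proline, had 2.78, 0.281 and 2.17 FPKM in Ori guts, 15.1, 12.5 and 7.17 FPKM in D14FL guts and 8.87, 16.4 and 4.50 FPKM in D30FL guts. Neither later group overlapped with Ori. It rose by 1.9 at day 14 (SE 0.52, adjusted p = 0.0443, transcript TRINITY_DN37715_c0_g1_i5_1) and stood at 1.61 at day 30 (SE 0.52, adjusted p = 0.0598), which missed the threshold. SLC16A10 (TAT1), which carries aromatic amino acids across the basolateral membrane, had 0.318, 0.859 and 1.54 FPKM in Ori guts, 4.97, 9.01 and 11.4 FPKM in D14FL guts and 4.09, 15.97 and 3.02 FPKM in D30FL guts. Again no later fish fell into the Ori range. It rose by 1.91 at day 14 (SE 0.54, adjusted p = 0.0479, transcript TRINITY_DN35858_c1_g1_i2_1) and stood at 1.56 at day 30 (SE 0.54, adjusted p = 0.0706). The day 14 calls of SLC6A20A and SLC16A10 each held in 8 of 21 alternative settings, and leaving out any Ori or D14FL fish ended them, with adjusted p of up to 0.147 and 0.142. Median-of-ratios scaling also ended them (adjusted p = 0.0796 and 0.0681), with changes of 1.86 and 1.95. Both transcripts passed the level filter only with later libraries counted, which favours higher later values.

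SLC1A5 (ASCT2), an exchanger of glutamine and other neutral amino acids, had 2.24, 5.73 and 1.95 FPKM in Ori guts, 7.68, 11.0 and 10.1 FPKM in D14FL guts and 11.0, 32.01 and 13.1 FPKM in D30FL guts. All later fish lay above all Ori fish, and the second D30FL fish was highest. It rose by 1.78 at day 30 (SE 0.45, adjusted p = 0.0329, transcript TRINITY_DN38944_c1_g1_i5_1), while the change of 1.01 at day 14 did not pass (adjusted p = 0.108). The day 30 call held in 13 of 21 alternative settings and was lost without the first or the third Ori fish, the first D14FL fish, or the first or second D30FL fish, with adjusted p of up to 0.105. A further 2 transcripts named SLC1A5 passed the filter and were not called.

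Among the remaining neutral carriers SLC38A2 (SNAT2), a sodium-coupled carrier known in mammalian cells to be induced when amino acids are scarce, had 7.60, 11.8 and 12.8 FPKM in Ori guts, 22.3, 23.6 and 28.2 FPKM in D14FL guts and 26.6, 36.6 and 14.2 FPKM in D30FL guts. Its groups did not overlap at either day, and its changes of 0.77 (adjusted p = 0.103) and 0.76 (adjusted p = 0.101) did not pass. SLC43A1 (LAT3), a facilitator of large neutral amino acids, had 2.49, 17.3 and 3.45 FPKM in Ori guts, 0.933, 1.42 and 0.752 FPKM in D14FL guts and 1.61, 1.38 and 2.68 FPKM in D30FL guts. It was the 1 carrier whose D14FL values all lay below the Ori values (-2.09, SE 0.56, adjusted p = 0.113), and the second Ori fish carried most of its Ori mean. SLC38A9, in mammals the lysosomal arginine sensor that signals to mTORC1, had 23.2, 10.6 and 16.4 FPKM in Ori guts, 28.6, 24.6 and 23.0 FPKM in D14FL guts and 17.0, 20.9 and 13.2 FPKM in D30FL guts, with no overlap between days 30 and 14. The other 8 members, SLC38A5, SLC36A1, SLC38A1, SLC38A10, SLC7A5, SLC36A4, SLC38A3 and SLC6A7, had means over all fish of 1.05 to 16.9 FPKM and none was called.

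Of the peptide carriers SLC15A1 (PEPT1), the proton symporter that brings di- and tripeptides into the enterocyte, was the most abundant carrier of the 53 by its mean of 238 FPKM. It had 9.22, 158 and 371 FPKM in Ori guts, 362, 332 and 138 FPKM in D14FL guts and 146, 317 and 308 FPKM in D30FL guts. The groups overlapped throughout, and the first Ori fish lay far below every other fish, in contrast to its high levels of SLC7A9, SLC3A1 and SLC1A1. The change was 1.22 at day 14 (SE 1.00, adjusted p = 0.349) and 1.15 at day 30 (SE 1.00, adjusted p = 0.362). SLC15A2 (PEPT2), the high-affinity peptide symporter, had 113, 35.3 and 77.8 FPKM in Ori guts, 137, 207 and 102 FPKM in D14FL guts and 92.6, 41.1 and 120 FPKM in D30FL guts, and overlapped at both days. SLC15A4, a lysosomal carrier of peptides and histidine, had 22.5, 14.7 and 19.5 FPKM in Ori guts, 28.9, 31.2 and 27.9 FPKM in D14FL guts and 16.2, 28.5 and 15.3 FPKM in D30FL guts. All its D14FL fish lay above all its Ori fish, and the change did not pass (0.25, SE 0.32, adjusted p = 0.253). SLC15A5 had a mean of 1.51 FPKM and was not called.

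Of the 10 sugar carriers SLC5A1 (SGLT1), which draws glucose and galactose into the enterocyte with sodium, had the highest mean. It had 56.1, 87.0 and 133 FPKM in Ori guts, 161, 178 and 101 FPKM in D14FL guts and 74.7, 93.1 and 112 FPKM in D30FL guts. The groups overlapped and its changes of 0.33 (SE 0.37, adjusted p = 0.261) and -0.28 (adjusted p = 0.901) did not pass. SLC2A5 (GLUT5), the fructose carrier, whose closest non-redundant entry is a hypothetical protein, had 6.94, 26.1 and 34.8 FPKM in Ori guts, 10.3, 5.34 and 4.57 FPKM in D14FL guts and 4.93, 1.37 and 12.5 FPKM in D30FL guts. Its second and the third Ori fish exceeded every later fish, while the first Ori fish lay among them, and the lower values of -1.81 (SE 0.67, adjusted p = 0.224) and -2.15 (SE 0.67, adjusted p = 0.139) did not pass. SLC2A8 (GLUT8), an intracellular hexose carrier, had 10.5, 3.78 and 5.75 FPKM in Ori guts, 13.6, 7.74 and 10.7 FPKM in D14FL guts and 6.05, 2.65 and 4.84 FPKM in D30FL guts, with no overlap between days 30 and 14.

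The facilitative glucose carriers SLC2A1 (GLUT1) and SLC2A3 (GLUT3), which are spread over many cell types in mammals, were low at day 0. SLC2A1 had 0.969, 1.36 and 1.29 FPKM in Ori guts, 4.14, 4.59 and 5.20 FPKM in D14FL guts and 6.89, 11.0 and 2.23 FPKM in D30FL guts. SLC2A3 had 0.268, 0.749 and 0.821 FPKM in Ori guts, 2.22, 2.02 and 7.02 FPKM in D14FL guts and 6.60, 11.0 and 1.34 FPKM in D30FL guts. The closest entry of the SLC2A3 transcript among non-redundant proteins is named for GLUT1, so its identity is uncertain too. The closest entries of the SLC38A5, SLC38A10 and SLC7A1 transcripts are likewise named for other members of their families. In both genes all later fish lay above all Ori fish, and none of the changes passed: SLC2A1 stood at 0.97 (adjusted p = 0.120) and 1.24 (adjusted p = 0.0725) at days 14 and 30, and SLC2A3 at 1.04 (adjusted p = 0.185) and 1.53 (adjusted p = 0.0926). SLC2A2 (GLUT2), the basolateral glucose carrier of mammalian enterocytes, was low in the transcript used, with a mean of 2.16 FPKM, and 6 transcripts that carry its name passed the filter. The remaining SLC2A9, SLC2A10, SLC2A11 and SLC2A6 had means of 0.872 to 3.18 FPKM.

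In the transcripts used, none of the 3 fatty acid carriers was called or had groups without overlap at any day. SLC27A2 (FATP2), an acyl-CoA synthetase for very long chains, had 81.8, 66.2 and 137 FPKM in Ori guts, 113, 125 and 132 FPKM in D14FL guts and 103, 44.2 and 113 FPKM in D30FL guts. SLC27A4 (FATP4), the form best known from the mammalian intestine, had 15.5, 29.9 and 41.0 FPKM in Ori guts, 29.1, 34.7 and 25.3 FPKM in D14FL guts and 24.4, 28.7 and 24.0 FPKM in D30FL guts. The transcript used for SLC27A1 stayed between 1.40 and 2.94 FPKM in all fish and held 50.5% of the mean FPKM of its name. Changes of these 3 transcripts lay between -0.25 and 0.06 at day 14 and between -0.54 and -0.06 at day 30. The other SLC27A1 transcript had 0.891, 0.820 and 0.545 FPKM in Ori guts and 2.95, 1.39 and 3.16 FPKM in D14FL guts. Those groups did not overlap, and it was not called (0.58, limma adjusted p = 0.293). At day 30 it overlapped with Ori. SLC16A3 (MCT4), which exports lactate from glycolytic cells, had 0.857, 1.01 and 2.54 FPKM in Ori guts, 2.78, 1.76 and 4.82 FPKM in D14FL guts and 4.03, 7.75 and 3.74 FPKM in D30FL guts. Its D30FL fish lay above its Ori fish (0.95, SE 0.44, adjusted p = 0.108). SLC5A8, a sodium-coupled monocarboxylate carrier, varied from a listed 0 to 8.28 FPKM with overlap in each comparison.

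The most abundant carrier of other substrates was SLC6A6, the taurine carrier. It had 15.6, 29.8 and 33.7 FPKM in Ori guts, 56.7, 45.4 and 32.8 FPKM in D14FL guts and 20.8, 37.9 and 12.6 FPKM in D30FL guts, with overlap and no call (0.40 at day 14, adjusted p = 0.285). A second transcript of that name rose at both days, with 2.02, 1.94 and 2.78 FPKM in Ori guts, 19.7, 12.5 and 11.5 FPKM in D14FL guts and 9.29, 20.6 and 5.39 FPKM in D30FL guts. Its changes were 1.85 at day 14 (SE 0.44, adjusted p = 0.0273) and 1.43 at day 30 (adjusted p = 0.0490). SLC5A11, an inositol symporter, had 21.3, 18.7 and 17.9 FPKM in Ori guts, 30.9, 38.3 and 22.5 FPKM in D14FL guts and 30.2, 9.59 and 21.3 FPKM in D30FL guts, with no overlap between days 14 and 0. A second transcript of the serotonin carrier SLC6A4 rose at day 30, with 4.78, 6.98 and 2.73 FPKM in D30FL guts and 0.307, 0.600 and 0.359 FPKM in Ori guts (1.60, SE 0.41, adjusted p = 0.0324), while the more abundant transcript of SLC6A4 was not called, with 6.96, 5.84 and 5.38 FPKM in D30FL guts and 4.10, 3.01 and 4.27 FPKM in Ori guts. The other members reported, from SLC6A8 with a mean of 12.9 FPKM to SLC6A9 with 1.30 FPKM, were not called.

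**Figure D4:**
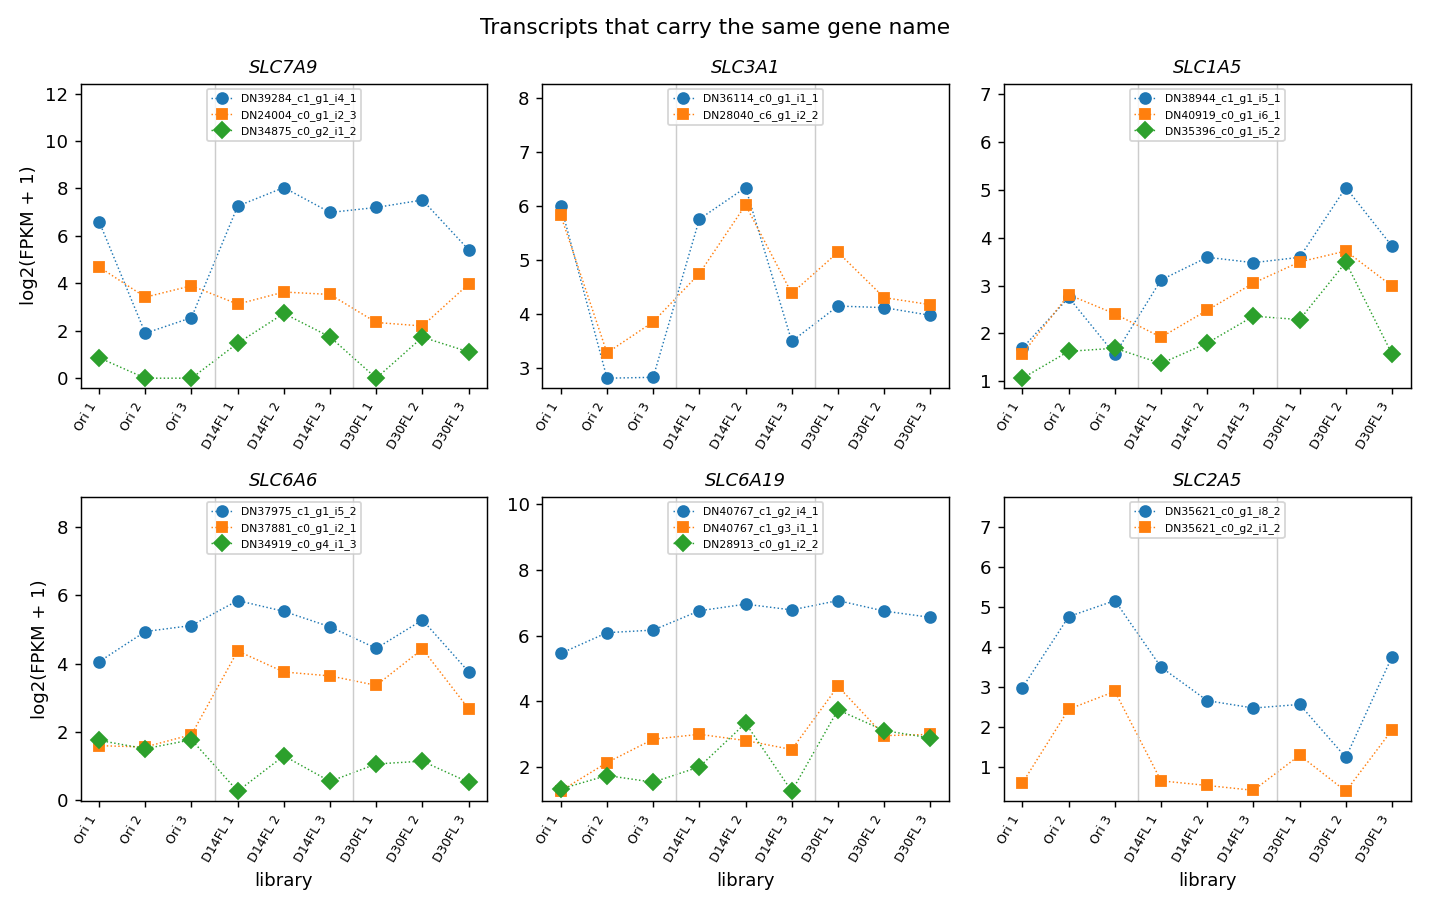
Level, as log2(FPKM + 1), of the most abundant passing transcripts that carry the same gene name in each of 9 libraries, for 6 carriers; the symbol with the highest mean stands for the gene in the text. The second SLC6A6 transcript (orange squares) is higher in all later libraries than in Ori, and the leading one (blue circles) is not. The third SLC6A6 transcript is lower in all later libraries than in Ori.

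The second transcripts matter because 29 of the 53 genes had more than 1 passing transcript and 24 had 1. Sturgeons are of polyploid descent, and near-identical copies can share reads, so values of transcripts with the same name are uncertain where the quantification could split reads between them. For SLC1A1, SLC6A20A and SLC16A10 the number of passing transcripts was 1. The transcript used for SLC1A5 held 52.5% of the mean FPKM of its name, that used for SLC3A1 50.9% and that used for SLC2A5 86.0%.

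Summed over the 53 carriers, the level was 903, 845 and 1304 FPKM in Ori guts, 1995, 2239 and 1476 FPKM in D14FL guts and 1286, 1829 and 1288 FPKM in D30FL guts. All D14FL fish lay above all Ori fish in this sum, and D30FL fish overlapped with the third Ori fish. The 2 acidic carriers summed to 209, 184 and 199.7 FPKM in D14FL guts and to 43.7, 9.60 and 7.05 FPKM in Ori guts, and the 17 neutral or broad carriers to 364, 393 and 323 FPKM in D14FL guts and to 192, 261 and 287 FPKM in Ori guts. Neither pair of groups overlapped. The 5 cationic carriers summed to 405, 586 and 271 FPKM in D14FL guts and to 266, 54.3 and 67.7 FPKM in Ori guts, also without overlap. Peptide, sugar and fatty acid carriers overlapped between the same groups, with 269 to 572, 141 to 208 and 145 to 162 FPKM in D14FL guts against 147 to 469.6, 77.7 to 189 and 98.01 to 179 FPKM in Ori guts. These sums rest on a few abundant genes and were not tested. They were taken as deposited, where the median of all tested transcripts lay 0.38 log2 units higher at day 14 than at day 0.

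**Figure D5:**
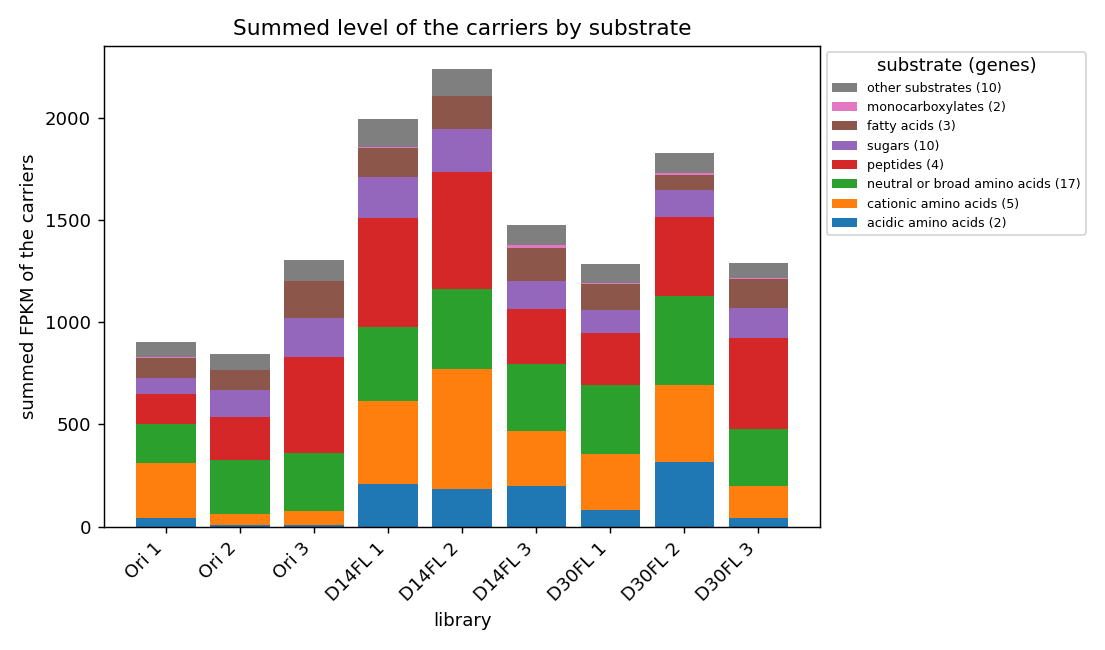
Summed FPKM of the carriers in each library, stacked by substrate. The D14FL bars reach 1476 to 2239 FPKM, above the Ori bars at 845 to 1304 FPKM, and the acidic amino acid segment at the base is 184 to 209 FPKM in D14FL guts and 7.05 to 43.7 FPKM in Ori guts.

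Between day 30 and day 14 limma called none of the 53 carriers, with 0% of all tested transcripts called higher and 0.00185% called lower. At limma's unadjusted threshold of 0.05, 0 carriers were higher (1.65% of all) and 2 lower (2.19% of all), SLC2A8 with a change of -1.10 and SLC6A6 with -0.99. With library weights in limma 5 were called, 1 higher and 4 lower, beside 3018 higher and 3444 lower of all 54200 transcripts. The groups did not overlap in SLC2A8 and SLC38A9, both lower at day 30 (4.46% of all tested transcripts), and in no carrier that was higher (3.83% of all). The median relative change of the set was -0.07. Of the 4 called carriers, SLC1A1 stood at -1.16 (SE 0.77), SLC16A10 at -0.36 (SE 0.54), SLC6A20A at -0.30 (SE 0.52) and SLC1A5 at 0.76 (SE 0.45).

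Partners of the carriers were described from a list of 12 genes, 8 of them found. Beside the calls in this and the further lists, 2.17% of all tested transcripts were called higher at day 14 and 2.49% at day 30. CLTRN (collectrin), which in mammals brings SLC6A19 and its relatives to the membrane, had 109, 42.9 and 43.3 FPKM in Ori guts, 250.1, 168 and 174 FPKM in D14FL guts and 117, 77.9 and 124 FPKM in D30FL guts. It rose at day 14 (1.32, SE 0.39, adjusted p = 0.0445), and at day 30 it overlapped with Ori. None of the partners was called at day 30, and under median-of-ratios scaling none was called at day 14. Of 8 ion pumps and exchangers found from 11 listed, SLC26A3, a chloride and bicarbonate exchanger of the apical membrane, rose at both days with 13.8, 15.5 and 26.9 FPKM in Ori guts, 107, 109 and 100.3 FPKM in D14FL guts and 57.4, 71.6 and 63.0 FPKM in D30FL guts. No later fish fell into the Ori range (2.10, SE 0.30, adjusted p = 0.00432 at day 14 and 1.40, SE 0.30, adjusted p = 0.0175 at day 30). ATP1B1, a subunit of the sodium pump that keeps the gradient symporters use, was not called.

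Among 12 genes of fatty acid uptake and activation, ACSL4, an acyl-CoA synthetase, rose at day 14 with 37.8, 91.0 and 36.4 FPKM in D14FL guts and 1.48, 3.20 and 4.26 FPKM in Ori guts (3.37, SE 0.61, adjusted p = 0.0151). DGAT2, which completes triacylglycerol, rose at both days (1.78, SE 0.46, adjusted p = 0.0348 and 1.71, SE 0.46, adjusted p = 0.0370), and none of the 12 fell. FABP2, the intestinal fatty acid binding protein, had 1668 to 4693 FPKM in Ori guts, 1294 to 1812 FPKM in D14FL guts and 302.5 to 2273 FPKM in D30FL guts, and was not called. Of 19 genes of amino acid sensing, DDIT4, an inhibitor of mTORC1, rose at both days and TRIB3, a target of the amino acid response, rose at day 30 with 17.4, 26.0 and 10.6 FPKM in D30FL guts and 6.17, 6.00 and 5.10 FPKM in Ori guts (1.04, SE 0.34, adjusted p = 0.0480). Of 8 genes of sugar handling, G6PC and PCK1, enzymes of glucose production, rose at both days and none was called lower. The median relative change of these 8 was nonetheless below 0, at -0.17 at day 14 and -1.02 at day 30. Under median-of-ratios scaling DGAT2 and TRIB3 were not called at either day, and CHAC1 of the amino acid list fell at day 14. G6PC was then called at day 14 alone and PCK1 at day 30 alone, and SORD of the sugar list fell at day 30.

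Markers of some other cells differed between the groups. Of 12 pancreas markers 8 were found, and their summed level was 612 to 755 FPKM in Ori guts, 445 to 6828 FPKM in D14FL guts and 1468 to 3965 FPKM in D30FL guts, with 2 called higher at day 14 and 4 at day 30. Over all tested transcripts, 2.17% were called higher at day 14 and 2.49% at day 30. Insulin (INS), a defining marker of pancreatic beta cells, had 0.287, 0 and 1.04 FPKM in Ori guts, 79.1, 40.9 and 36.1 FPKM in D14FL guts and 201, 182 and 184 FPKM in D30FL guts. Of 15 enterocyte markers CDH1, the adhesion protein of epithelia, rose at both days, and the median change of the list was 0.35 at day 14 and -0.15 at day 30. Smooth muscle markers (6 of 8 found) summed to 15.6 to 379 FPKM in Ori guts, 62.7 to 331 FPKM in D14FL guts and 162 to 281 FPKM in D30FL guts. Skeletal muscle rows (6 of 9 found) summed to 30.3 to 83.0 FPKM in Ori guts, 1.73 to 4.76 FPKM in D14FL guts and 0.207 to 9.25 FPKM in D30FL guts. Of those 6 rows 5 fell and are best matched to birds, with 0.600% of all tested transcripts called lower at day 14 and 0.732% at day 30. Endothelial markers (7 of 9 found) summed to 22.5 to 38.7 FPKM in Ori guts, 57.4 to 63.1 FPKM in D14FL guts and 58.6 to 78.1 FPKM in D30FL guts, with 1 of the 7 called higher at day 14 and 2 at day 30, and 0 at either day under median-of-ratios scaling. Neurons and glia were thinly covered, with 4 of 11 markers found and summed levels of 11.4 to 33.6 FPKM in Ori guts, 29.1 to 96.9 FPKM in D14FL guts and 44.6 to 72.9 FPKM in D30FL guts, and no marker of neurons and glia, smooth muscle, leucocytes, liver or erythrocytes was called. The part of any of these in the changes of the carriers was not tested.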

How the data were processed

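The deposited table gives the authors' FPKM for 59331 transcripts of a de novo assembly in 9 libraries, per the file headers, with annotation against protein databases. Reads were trimmed with cutadapt 1.9, per the submitters' processing notes, which also name a mouse genome build that nothing here uses. The assembler is shown only by the transcript identifiers, which begin with TRINITY, the name of a de novo assembler. The quantification tool and the depth are each not given in the sources used here. Counting error could therefore not be stated. FPKM sums were 810895 to 929953 per library, and values above 0 reached down to 3.63e-118, so whole reads were not recovered.

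The 54200 transcripts that reached 1 FPKM in 3 or more libraries entered limma 3.58.1 in R 4.3.3 (lmFit, contrasts, eBayes with trend) on log2(FPKM + 1), two-sided and without a block, with Benjamini-Hochberg adjustment over all of them. Changes of low transcripts are understated on this scale. Software for tables was pandas 2.3.3, numpy 2.4.6 and the R package data.table (version 1.17.8), run with Python 3.11.15, and plots used matplotlib 3.10.9. The fit was tested on simulated normal values with 1 spread per transcript and no shift of whole libraries. That test therefore does not cover the shift of the whole table between the days or a wider spread in 1 group. Gene names came from the annotation alone, and 8 pairs of a listed symbol and a protein of another name were left out. The 30 carriers given by fish or by test were those called, the 3 most abundant of each substrate, and the 10 of smallest p in each comparison. SLC6A4 and the further transcripts of a gene were named after their values were seen. The carriers, substrate groups and gene lists were chosen with earlier results of these data known. Replicate numbers name different fish, so a p measures the spread between fish caught at each day. A further time point was not analysed here. A few genes of the set and its lists stay in the counts and sums but are not reported here.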

Additional observations from a re-analysis of the deposited data

How the results depend on the processing

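The fits were repeated under 22 alternatives, and none of the 4 called carriers changed sign at the day of its call. Small changes of carriers that were not called can turn sign. At day 14 against day 0 the 3 called carriers became 5 at an adjusted p under 0.1, 1 with a pseudocount of 0.01, 1 under median-of-ratios scaling, 1 under quantile scaling, 1 without limma's trend, 8 with library weights and 5 in a fit over the 2 groups compared. Of all tested transcripts the reported fit called 1176 higher and 325 lower, and these settings 3462 and 872, 1010 and 98, 435 and 646, 388 and 509, 860 and 288, 5328 and 1402, and 2699 and 636, in that order. Leaving out 1 fish gave 0 to 5, with 0 without the second or the third Ori fish or any D14FL fish, 1 without the first D30FL fish and 5 without the second or the third. At day 30 the 1 call became 6 at an adjusted p under 0.1, 2 among the 29 carriers with a mean of at least 5 FPKM, 0 under median-of-ratios scaling, 0 under quantile scaling, 25 with library weights, 0 in the 2-group fit and 2 with the transcripts of a gene summed. Over all transcripts the 1349 higher and 397 lower became 4112 and 1072, 1533 and 269 of 19743, 534 and 709, 390 and 547, 13911 and 4761, 390 and 117, and 1348 and 397, in that order. Leaving out 1 fish gave 0 to 15, with 15 without the third D30FL fish (5244 higher and 1222 lower of all transcripts). Without the first Ori fish 2 were called (206 and 102 of all). The count was 0 without the third Ori fish (171 and 55) or the first D14FL fish (521 and 181). It was also 0 without the first (73 and 25) or the second D30FL fish (234 and 86). Between days 30 and 14 library weights gave 5 and leaving out a fish 0 throughout. The weights did not reach their convergence tolerance.

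The median change at day 14 was 0.48 with a pseudocount of 0.01 and 0.50 with transcripts summed, and 0.28 to 0.40 without 1 fish. At day 30 it was 0.11 with the mean filter, 0.27 under median-of-ratios scaling and 0.13 to 0.55 without 1 fish. Between days 30 and 14 it was -0.35 with the mean filter and -0.18 to -0.07 without 1 fish. With the replicate number as a block, 1 carrier was called at day 14, SLC1A1, and 1 at day 30. Of all transcripts that fit called 236 higher and 79 lower at day 14 and 265 higher and 92 lower at day 30. Same-numbered fish correlated at -0.32 to 0.08 in their deviations and 1 of 9 libraries correlated best with its own number, so the numbers do not pair fish. Depth is unknown, and 3 fish a group limit the precision. The causes of these shifts were not tested.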
